A study of Mus musculus with 48 samples.

Results

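The transcripts of 8 mouse genes of the formative state and of Nodal signaling were followed through the chemical induction of gonadal somatic cell-like cells (GSCLCs) from embryonic stem cells (ESCs). The genes were Otx2, Fgf5, Foxd3, Mycn, Nodal, Tdgf1, Lefty1 and Lefty2, chosen by symbol in the bulk tables and by Ensembl ID in the single-cell table. All 8 had a row among the 22173 genes of the developmental stages and among the 32285 genes of the single cells. In the table of 13682 genes that holds the treatments and the V580 days, 5 of the 8 had a row (Fgf5, Foxd3, Mycn, Tdgf1 and Lefty1), and Otx2, Nodal and Lefty2 were not analysed there.

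All cells were of strain C57BL/6. Female ESCs, grown on a feeder layer of mouse embryonic fibroblasts with 2i and LIF, were moved to fibronectin without these factors and kept for 24 h or 48 h under 1 of 4 conditions with 2 libraries each. These were no agent (Con), vitamin C (Vc), AM580, which is an agonist of the retinoic acid receptor alpha, and Vc with AM580 together (V580). V580 cells of days 4, 6, 8 and 10 (V580_D4 to V580_D10) and somatic cells of E12.5 female gonads (E12.5_GC) had 3 libraries a group. Gonadal somatic cells (GSCs) of female gonads at E12.5, E13.5 or E16.5 and of the ovary of 6-week-old mice (P6w) had 2 libraries a stage. The single cells were 1 10x sample of V580_D6. Gonad somatic cells were what passed through a column that retained SSEA1-positive germ cells, so that other germ cells could remain. Whether libraries of a group came from separate cultures or animals was not stated, so the p-values measure only the spread between these libraries, which may be technical. PGC libraries of the series were not analysed here. Of the 48 samples of the series, 40 were used.

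When naive ESCs leave 2i and LIF, they pass through a formative state before they take up a lineage. Otx2 and Foxd3 are transcription factors of this transition, Fgf5 is a secreted FGF and its usual marker, and Mycn encodes a Myc family transcription factor of fast growing progenitors. Nodal is a TGF-beta family ligand that keeps the epiblast uncommitted and later patterns the mesoderm and endoderm. It signals through activin receptors and Smad2 or Smad3, needs the coreceptor Tdgf1 (Cripto), and induces its own secreted inhibitors Lefty1 and Lefty2.

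The genes lay on 7 chromosomes of GRCm38, the build called mm10 in the methods. In GENCODE vM21, Fgf5 spanned chr5:98254184-98277030 (+), Foxd3 chr4:99656299-99658622 (+), Mycn chr12:12936093-12941914 (-), Tdgf1 chr9:110939603-110946158 (-), Nodal chr10:61417972-61425338 (+) and Otx2 chr14:48657677-48673819 (-). Lefty2 at chr1:180893108-180899103 (+) and Lefty1 at chr1:180935022-180938400 (+) lay side by side. Their transcripts were 91.6% identical over 1152 aligned bases, and 17.9% of the windows of 50 bases in Lefty1 were also in Lefty2, so the split of reads between them is uncertain. Tdgf1 had a processed copy, Tdgf1-ps1, with 98.8% identity over 512 bases and 12.53% of the windows of 50 bases in Tdgf1 shared. Otx2 overlapped the antisense gene Otx2os1 (chr14:48668708-48870683, +), and whether reads were counted by strand was not given in the sources used here.

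The promoters of the 4 genes whose level fell under V580 at 48 h are shown, since the agonist acts through a DNA-binding receptor. Each is the 250 bases before the start of a RefSeq transcript (GRCm38.p6), read 5′ to 3′ on the gene's strand. They are chr4:99656049-99656298 (+) for Foxd3, chr12:12941837-12942086 (-) for Mycn, chr5:98253934-98254183 (+) for Fgf5 and chr9:110946159-110946408 (-) for Tdgf1. Capitals mark every match, on either strand, to the motifs searched.
Foxd3: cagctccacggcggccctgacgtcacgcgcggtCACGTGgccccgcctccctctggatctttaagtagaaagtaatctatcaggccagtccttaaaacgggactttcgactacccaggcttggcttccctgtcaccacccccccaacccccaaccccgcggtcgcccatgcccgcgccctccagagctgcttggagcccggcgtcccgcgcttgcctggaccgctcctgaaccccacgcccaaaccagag
Mycn: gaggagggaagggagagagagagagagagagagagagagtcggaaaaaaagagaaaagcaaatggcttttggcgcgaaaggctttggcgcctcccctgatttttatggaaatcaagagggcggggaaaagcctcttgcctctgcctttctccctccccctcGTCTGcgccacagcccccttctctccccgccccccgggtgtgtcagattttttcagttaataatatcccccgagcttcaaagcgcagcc
Fgf5: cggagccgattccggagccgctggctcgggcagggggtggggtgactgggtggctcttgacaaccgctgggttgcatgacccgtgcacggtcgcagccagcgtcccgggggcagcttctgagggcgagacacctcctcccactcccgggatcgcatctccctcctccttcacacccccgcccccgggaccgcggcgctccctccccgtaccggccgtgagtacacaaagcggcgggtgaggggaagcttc
Tdgf1: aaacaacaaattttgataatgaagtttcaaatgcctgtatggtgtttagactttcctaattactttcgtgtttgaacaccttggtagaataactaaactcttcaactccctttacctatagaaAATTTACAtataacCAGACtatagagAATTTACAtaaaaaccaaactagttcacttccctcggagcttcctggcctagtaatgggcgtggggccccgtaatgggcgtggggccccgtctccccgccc

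The motifs searched were the retinoic acid receptor hexamer AGGTCA, its direct repeats DR5 (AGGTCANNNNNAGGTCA, in 0.00922% of windows) and DR2 (AGGTCANNAGGTCA, also 0.00922%), the Smad letters CAGAC and GTCTAGAC, the FOXH1 core TGTNNATT, the octamer ATGCAAAT, the E-box CACGTG and the TATA box TATAAA. The Foxd3 window held an E-box 217 bases before the start, as did 6.04% of 32536 promoter windows of that length. The Tdgf1 window held the FOXH1 core at 127 and at 101 bases before the start and CAGAC at 113 bases, and 10.9% and 42.2% of all windows held these letters. The Mycn window held CAGAC at 89 bases, and the Fgf5 window held none of the motifs. The hexamer AGGTCA was in 14.0% of all windows and in none of these 4. The Nodal window (chr10:61417722-61417971, +) held none of the motifs, and Lefty1 and Lefty2 had no match in the promoter table.

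Depth and purity set the precision. Whole reads could be recovered from the FPKM values, and they summed to 16795253 to 24895514 reads a library, with 12694769 to 22259044 for the stages. The summed FPKM of 5 pluripotency markers (Pou5f1, Nanog, Sox2, Zfp42 and Dppa5a) was 3394 to 3694 in Con_24h, 1764 to 1810 in Con_48h, 2056 to 2154 in V580_48h and 197 to 224 in V580_D4, and it was at most 16.4 from V580_D6 on and at most 9.28 in E12.5_GC. Fibroblast markers, taken for the feeder, summed to 22.2 to 24.2 in Con_24h, 8.27 to 9.06 in Con_48h and 4.79 to 5.73 in V580_48h. The same sum was 86.6 to 91.0 in V580_D10. The part of feeder cells in the results was not tested. The 3 E12.5_GC libraries carried erythroid transcripts at 1038 to 4435 summed FPKM, against at most 0.739 in the induced cells, and differed from each other more than the replicates of any other group of that table did.

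Against untreated cells at 48 h, the Nodal inhibitor Lefty1 rose under AM580 and V580, while Foxd3 and Mycn fell by the largest steps. At 24 h Mycn was already lower under both agents, and Lefty1 was higher under AM580 but not under V580. Fgf5 fell most when Vc and AM580 were given together, and Tdgf1 was high in every one of the 16 libraries. FPKM is the number of fragments scaled by transcript length and library total, so levels can be set side by side between genes. Differences are on the log2(FPKM + 1) scale unless called a fold, which is the ratio of mean FPKM. A gene was called where the adjusted p of limma was below 0.05 and the difference at least 2-fold on that scale, among 10644 genes tested.

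Without agents, the 24 h from the first to the second time point changed 2 of the 5 genes, where 7.72% of all genes were called. Lefty1 was at 3.53 and 3.46 FPKM in the Con_24h libraries and at 99.9 and 96.2 in the Con_48h libraries. It rose 28.1-fold (difference 4.46, SE 0.0445, limma adjusted p = 9.73e-18). Fgf5 was at 1.85 and 2.47 FPKM in Con_24h and at 21.98 and 20.7 in Con_48h. It rose 9.88-fold (difference 2.83, SE 0.088, limma adjusted p = 1.26e-12). The coreceptor gene Tdgf1 stood at 367 and 385 FPKM and then at 550.5 and 560.2, a difference of 0.56 that was below the fold limit. Foxd3 stood at 43.6 and 44.6 FPKM and then at 27.1 and 30.4, a difference of -0.60. Mycn was level, with 69.1 and 66.5 FPKM at 24 h, 63.9 and 67.1 at 48 h and a difference of -0.05 (95% interval -0.17 to 0.07).

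The genes around them moved as well between these controls. Of 8 tested genes of the formative and primed epiblast list, 4 rose and 1 fell, with a median of 0.61 against 0.00 for all genes. Dnmt3b, a de novo DNA methyltransferase, went from 148 to 413 FPKM, Sall2 from 4.50 to 21.2 and Zic5 from 7.59 to 19.4. Of 10 tested naive pluripotency genes 9 fell (median -1.57), among them Esrrb from 37.6 to 5.89, Klf4 from 14.5 to 1.95 and Klf5 from 27.5 to 4.80. In the Nodal pathway, 2 of 3 tested ligands fell, with Inhba, which encodes an activin subunit, going from 31.4 to 5.98 FPKM. Of 9 tested inhibitors 2 fell, Pmepa1 from 15.0 to 5.17 and Dact2 from 10.7 to 4.74. No receptor, Smad or target gene of the lists was called here.

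Vc alone changed 1 member at 24 h, where 0.0846% of genes were called. Lefty1 was at 1.01 and 1.07 FPKM in Vc_24h and at 3.53 and 3.46 in Con_24h, and the groups did not overlap. It fell 3.36-fold (difference -1.14, SE 0.0445, limma adjusted p = 2.51e-09) on 31 to 122 reads a library. Tdgf1 was at 260.5 and 247 FPKM against 367 and 385, a difference of -0.57 that stayed under the fold limit. At 48 h no member was called, against 0.047% of all genes, although 4 of the 5 had an adjusted p below 0.05, as did 12.4% of all genes. The largest of these differences was that of Tdgf1, at 327 and 339.5 FPKM in Vc_48h and 550.5 and 560.2 in Con_48h (-0.74, SE 0.0426, limma adjusted p = 8.69e-08). Lefty1 differed by -0.06 there (95% interval -0.15 to 0.02).

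AM580 alone changed 2 members at 24 h, where 0.404% of genes were called. Lefty1 was at 10.0 and 9.44 FPKM, all above the controls, and rose 2.79-fold (difference 1.26, SE 0.0445, limma adjusted p = 1.3e-10). Mycn was at 26.7 and 27.3 FPKM against 69.1 and 66.5 and fell 2.51-fold (difference -1.29, SE 0.062, limma adjusted p = 2.91e-09). Foxd3 was at 26.0 and 25.2 FPKM, a difference of -0.76, and Fgf5 at 0.737 and 0.782 FPKM, a difference of -0.84. Neither reached the fold limit on this scale. The mean FPKM of Fgf5 was 2.85-fold lower than in the controls, on 35 reads in each AM580_24h library. For Fgf5 edgeR on the recovered reads gave -1.50 (adjusted p = 3.09e-05). Tdgf1 was at 372 and 388 FPKM and differed by 0.01 (95% interval -0.07 to 0.10).

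At 48 h, 3 members were called under AM580, against 3.23% of all genes. Lefty1 reached 492 and 507 FPKM, on 16984 and 16875 reads, and rose 5.09-fold over the controls (difference 2.34, SE 0.0445, limma adjusted p = 1.23e-14). Foxd3 was down to 1.77 and 2.29 FPKM from 27.1 and 30.4 and fell 14.1-fold (difference -3.30, SE 0.088, limma adjusted p = 4.23e-13). Mycn was at 7.48 and 7.19 FPKM and fell 8.92-fold (difference -2.99, SE 0.062, limma adjusted p = 2.31e-14). Foxd3 and Mycn thus lay below every library without AM580, and Lefty1 above every one. Fgf5 stood at 17.0 and 15.7 FPKM (difference -0.37) and Tdgf1 at 358 and 370.5 FPKM (difference -0.61), both short of the fold limit.

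Under V580, 2 members were called at 24 h, against 0.695% of genes. Fgf5 was at 0.151 and 0.197 FPKM, on 7 and 11 reads, below every other library of that time. It fell 12.4-fold as a ratio of mean FPKM, with a difference of -1.42 on the log2 scale with the pseudocount of 1 (SE 0.088, limma adjusted p = 2.43e-08). Mycn was at 20.9 and 20.5 FPKM and fell 3.28-fold (difference -1.66, SE 0.062, limma adjusted p = 1.46e-10). Lefty1 was at 2.21 and 2.01 FPKM, which was between the Vc and the control libraries and gave a difference of -0.53, under the fold limit.

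At 48 h all 5 members were called under V580, against 3.18% of all genes. Mycn stood at 3.94 and 3.14 FPKM and fell 18.5-fold (difference -3.88, SE 0.062, limma adjusted p = 1.64e-15). Foxd3 stood at 1.48 and 1.04 FPKM and fell 22.8-fold (difference -3.72, SE 0.088, limma adjusted p = 1e-13). These were the lowest levels of both genes among the 16 libraries. Fgf5 was at 5.22 and 5.49 FPKM and fell 3.99-fold (difference -1.81, SE 0.088, limma adjusted p = 3.22e-10). Tdgf1 was at 256 and 257 FPKM and fell 2.17-fold (difference -1.11, SE 0.0426, limma adjusted p = 2.31e-11), a call that was lost under quantile normalization (-0.90). Lefty1 moved the other way, to 344 and 357 FPKM, and rose 3.58-fold (difference 1.83, SE 0.0445, limma adjusted p = 1.47e-13).

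**Figure D1:**
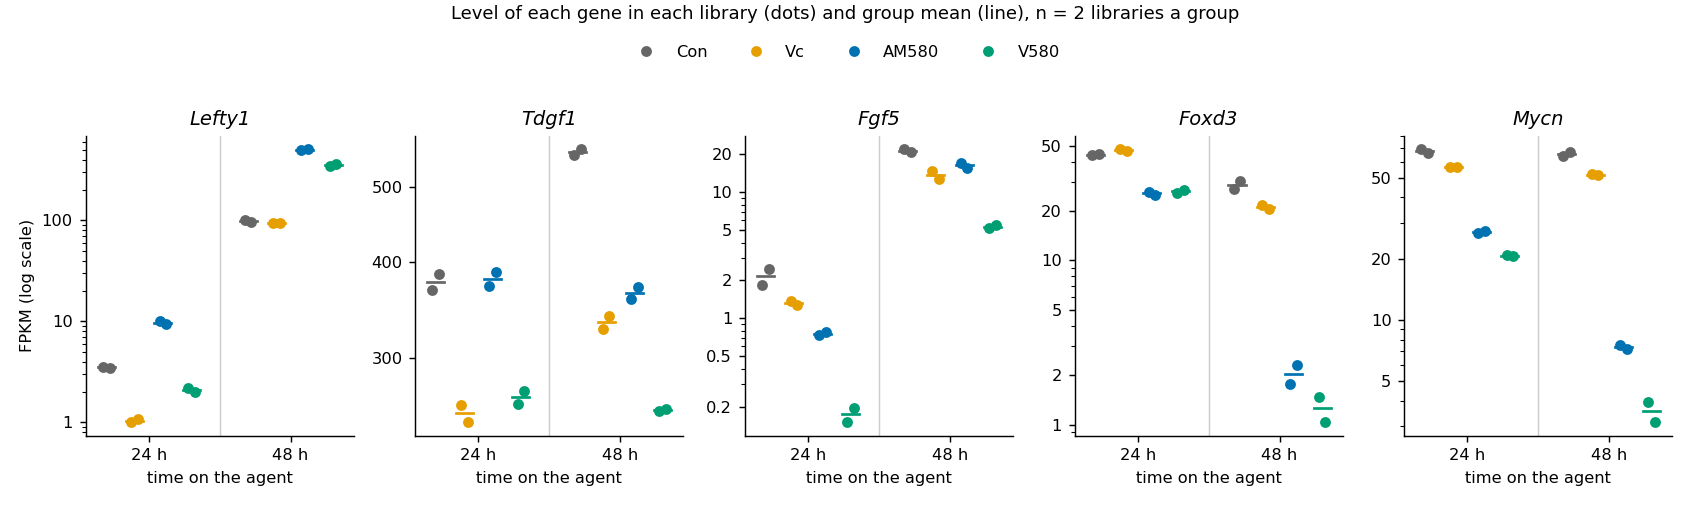
FPKM of each gene (log axis) in each library (dots) of the 4 conditions at 24 h and 48 h, with the group mean as a line and n = 2 libraries a group. Lefty1 climbs from 1.01 to 10.0 FPKM at 24 h to 93.2 to 507 at 48 h, while Foxd3 and Mycn are lowest where AM580 is present.

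Vc and AM580 together were compared with AM580 alone, to separate what the vitamin added. At 24 h Lefty1 was 4.62-fold lower in V580 than in AM580 cells (difference -1.79, SE 0.0445, limma adjusted p = 4.4e-12), 1 member of 5 where 0.0658% of genes were called. Fgf5, at 0.174 against 0.759 mean FPKM, was 4.37-fold lower there, but its difference of -0.58 was under the fold limit. For Fgf5 edgeR on the recovered reads gave -2.08 (adjusted p = 0.000429). At 48 h Fgf5 was 3.05-fold lower (difference -1.45, SE 0.088, limma adjusted p = 6.91e-08), again 1 of 5, where 0.263% of genes were called. At 48 h Mycn differed by -0.88, Lefty1 by -0.51, Tdgf1 by -0.51 and Foxd3 by -0.43, all under the fold limit. The mean FPKM of Mycn was 2.07-fold lower in V580 than in AM580 cells. For it edgeR on the recovered reads gave -1.04 (adjusted p = 6.4e-08). Foxd3 did not separate the pair at 24 h, with 25.7 and 27.0 FPKM in V580 and 26.0 and 25.2 in AM580 cells (difference 0.04, 95% interval -0.13 to 0.21).

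Whether Vc acted differently with AM580 than without it was tested as an interaction, a comparison added after the values were seen. No member was called at either time, where 0% of genes at 24 h and 0.122% at 48 h were called. Below the fold limit, the Vc effect on Lefty1 at 24 h was lower with AM580 by -0.65 (limma adjusted p = 0.000572), but edgeR on the recovered reads gave -0.45 (adjusted p = 1.00). At 48 h the Vc effect on Fgf5 was lower with AM580 by -0.85 (limma adjusted p = 0.00136) and that on Mycn by -0.55 (limma adjusted p = 0.00212).

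The effect of an agent at 48 h minus its effect at 24 h was tested in the same model. For AM580 it was called for 3 members, against 1.9% of genes: -2.53 for Foxd3 (SE 0.124), -1.70 for Mycn (SE 0.0877) and 1.08 for Lefty1 (SE 0.0629), with limma adjusted p from 2.46e-09 to 1.36e-08. For V580 the same 3 genes were called, against 1.83% of genes, at -3.00 for Foxd3, -2.21 for Mycn and 2.36 for Lefty1. For Vc only Lefty1 was called, at 1.08 (SE 0.0629, limma adjusted p = 6.82e-07), against 0.0376% of genes. The value of Fgf5 for V580 was -0.39 and turned with the pseudocount, being 1.06 with 0.1 in place of 1 and 1.61 in edgeR on the recovered reads, so no direction is given for it.

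**Figure D2:**
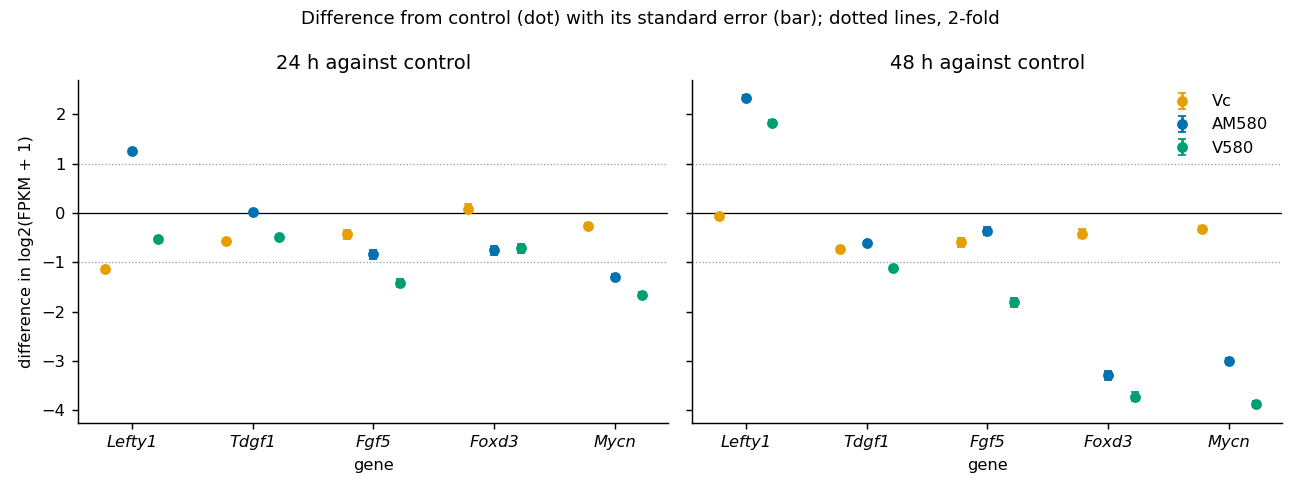
Difference from control in log2(FPKM + 1) for each gene at 24 h (left) and 48 h (right) under Vc, AM580 and V580, with standard errors as bars and dotted lines at 2-fold. At 48 h Lefty1 lies at 2.34 under AM580 and 1.83 under V580, and Foxd3 and Mycn lie between -2.99 and -3.88.

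Other genes of these pathways, from lists chosen with earlier results of these data known, gave the setting. The retinoic acid response list moved with the agonist, with 5 of 5 tested genes higher under AM580 at 48 h (median 2.77) and 4 of 5 under V580 (median 2.71), against medians of -0.03 and -0.02 for all genes. Cyp26a1, which degrades retinoic acid, went from 0.860 FPKM in Con_48h to 90.6 under AM580 and 121 under V580. None of the 5 was called under Vc at either time.

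Of 8 tested formative and primed epiblast genes, 5 fell under AM580 and 5 under V580 at 48 h, and none rose (medians -1.11 and -1.12). Dnmt3b went from 413 FPKM to 64.9 and 68.5, Lef1, a Wnt effector, from 5.79 to 0.861 and 0.487, and Zic5 from 19.4 to 5.69 and 5.97. The other 8 genes of that list had no row in this table. Naive genes did not fall with them, since 1 of 10 rose under AM580 and 2 under V580, among them Klf2 (26.4 FPKM under V580 against 10.2). Pou5f1, the general pluripotency factor, fell from 456 to 189 and 187 FPKM. In the FGF list, 2 of 10 fell under both, Fgf4 from 110.5 to 35.1 and 23.1 FPKM and Etv5, an ETS factor downstream of FGF, from 102 to 47.5 and 39.996. Of 7 tested Myc family genes other than Mycn none was called.

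Few other Nodal pathway genes passed both the adjusted p and the fold limit. At 48 h 0 of 3 ligands, 0 of 3 receptors, 0 of 3 signal transducers and 0 of 2 coreceptor and processing genes were called by limma under AM580 or V580. By adjusted p alone, 3 of 3 transducers, 2 of 2 coreceptor and processing genes and 2 of 3 receptors were higher under AM580 (medians 0.40, 0.32 and 0.19). Under V580 these were 2 of 3, 2 of 2 and 2 of 3. Of the ligands, 1 of 3 was lower under each agent. The share of all genes under that rule is not given here. Of 9 tested inhibitors other than Lefty1, 1 rose and 1 fell under AM580, and Ski, a Smad corepressor, was the one that rose (58.5 FPKM against 26.7, difference 1.10). Both tested embryonic targets, Eomes and Foxa2, rose under AM580, at a median of 1.23. Under V580 neither was called (median 0.65).

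From 48 h to day 4 of V580 the order of the members turned over. Lefty1 fell from 344 and 357 FPKM to 2.00, 2.07 and 2.09, or 171-fold (difference -6.85, SE 0.0937, limma adjusted p = 6.65e-25). Tdgf1 fell from 256 and 257 FPKM to 4.42, 4.44 and 5.15, or 54.8-fold (difference -5.51, SE 0.0605, limma adjusted p = 1.1e-26). The coreceptor and the inhibitor thus left together with most of the pluripotency marker sum. Mycn moved the other way, from 3.94 and 3.14 FPKM to 23.7, 24.3 and 22.2, and rose 6.61-fold (difference 2.43, SE 0.133, limma adjusted p = 8.94e-14). Fgf5 also rose, from 5.22 and 5.49 to 12.7, 12.7 and 11.9 FPKM, or 2.32-fold (difference 1.08, SE 0.0792, limma adjusted p = 1.78e-11). Foxd3 fell by 1.14 (limma adjusted p = 3.82e-09) to at most 0.0359 FPKM, which was 0 to 2 reads a library.

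All 5 members were called in this comparison, where 15.6% of 11921 genes were. The hours and the days form separate series of libraries in the labels, so the series and the time cannot be told apart. In bulk cells, fewer cells that carry a transcript and less of it per cell cannot be told apart either. Of the lists, 6 of 8 formative and primed genes and 5 of 5 general pluripotency genes fell over the same step (medians -1.77 and -2.83, against 0.04 for all genes), with Utf1 going from 285 to 21.4 FPKM and Pou5f1 from 187 to 3.56. Of 3 tested Nodal pathway ligands 2 fell, Gdf3 from 30.96 to 0.179 FPKM and Inhba from 5.73 to 0.876. Smad3 rose from 7.45 to 22.4 FPKM and Foxa2 from 0.446 to 12.8.

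From day 4 to day 10 Fgf5 went down step by step. Its 3 libraries read 12.7, 12.7 and 11.9 FPKM on day 4, 6.47, 7.57 and 6.72 on day 6, 2.04, 2.30 and 2.31 on day 8 and 1.51, 1.54 and 1.29 on day 10. No 2 days overlapped. The step from day 6 to day 8 passed the fold limit (3.12-fold lower, difference -1.30, SE 0.0677, limma adjusted p = 4.14e-09), 1 of 4 members tested where 2.55% of 11512 genes were called. The steps before and after it were -0.77 and -0.40 and did not reach 2-fold.

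Mycn peaked on day 6. It read 23.7, 24.3 and 22.2 FPKM on day 4, 47.3, 50.4 and 49.6 on day 6, 36.8, 37.0 and 33.2 on day 8 and 28.7, 29.7 and 29.2 on day 10. The rise to day 6 was 2.1-fold (difference 1.04, SE 0.146, limma adjusted p = 4.31e-05). The later steps were -0.45 to day 8 and -0.28 to day 10 (95% interval -0.56 to 0.01), under the fold limit.

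Tdgf1 fell 3.55-fold from day 4 to day 6 (difference -1.29, SE 0.0692, limma adjusted p = 2.12e-09), to 1.47, 1.30 and 1.17 FPKM, and was at 1.22 to 2.08 FPKM in the libraries of days 8 and 10. Mycn and Tdgf1 were the 2 of 4 members called from day 4 to day 6, where 5.08% of genes were. Lefty1 stayed low, with its lowest levels on day 6 at 0.614 to 0.953 FPKM and 2.43 to 3.19 FPKM on day 10, on 24 to 139 reads a library. From day 8 to day 10 none of the 4 was called by limma, against 1.29% of genes, while 3 of the 4 had an adjusted p below 0.05, as did 34.5% of genes. Foxd3 had 0 to 7 reads in each of these 12 libraries and was left out by the filter on low values.

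**Figure D3:**
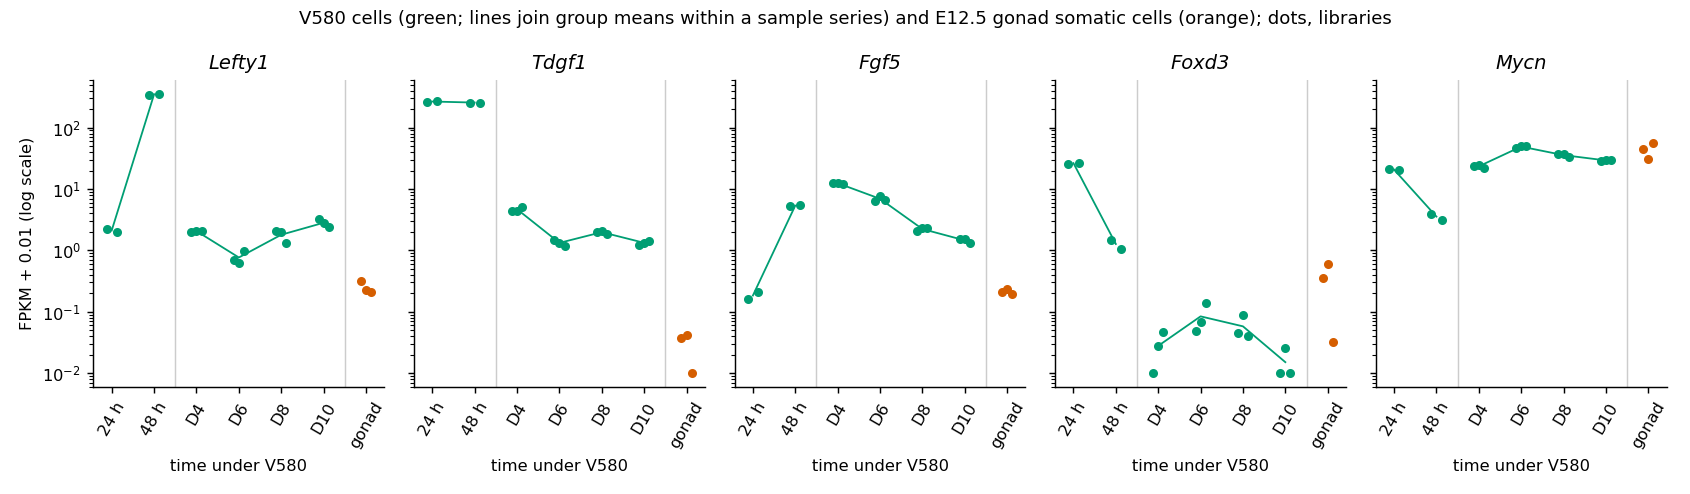
FPKM + 0.01 of each gene (log axis) in V580 libraries from 24 h to day 10 (green dots, lines joining group means within a series) and in the E12.5 gonad libraries (orange). Lefty1 and Tdgf1 drop from 344 to 357 and 256 to 257 FPKM at 48 h to 2.00 to 2.09 and 4.42 to 5.15 at day 4, while Mycn climbs to 47.3 to 50.4 at day 6.

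Against the E12.5_GC libraries, the state the induction aims at, Mycn lay closest of the 4 members tested. It was at 44.6, 30.3 and 56.1 FPKM there (43.7 ± 12.9, SD, n = 3). On day 6 the difference was 0.21 (95% interval -0.08 to 0.50, limma adjusted p = 0.221), and on day 8 it was -0.24 (limma adjusted p = 0.16). On day 4 it was -0.83 (limma adjusted p = 0.000129) and on day 10 -0.52 (limma adjusted p = 0.00553). On days 4 and 10 the libraries did not overlap those of the gonad, and only the fold limit kept Mycn from being called. Fgf5 was at 0.184 to 0.222 FPKM in the gonad cells, on 9 to 14 reads, and was higher in the V580 cells on all 4 days, by 3.48 on day 4, 2.72 on day 6, 1.42 on day 8 and 1.02 on day 10 (limma adjusted p = 6.01e-15 on day 4 and 4.26e-09 on day 10). The day 10 call was lost under quantile normalization (0.90) and without V580_D10 replicate 2 (0.994).

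Lefty1 was at 0.203 to 0.307 FPKM in the gonad cells and was higher on day 4 by 1.30, on day 8 by 1.15 and on day 10 by 1.61. On day 6 the difference was 0.49 and short of the limit, although the mean FPKM was 3.11-fold higher and edgeR on the recovered reads gave 1.58 (adjusted p = 0.000176). Tdgf1 was higher on all 4 days, by 2.47, 1.18, 1.54 and 1.18, against 0 to 2 reads in each gonad library, so no fold is given. Foxd3 had 22, 32 and 1 reads in the 3 gonad libraries. Of the 4 members tested, 3 were called on days 4, 8 and 10 and 2 on day 6, where 20.4%, 13%, 16.4% and 15.2% of genes were called. These 4 comparisons share the gonad libraries. In the formative and primed epiblast list, 4 of 7 tested genes were higher and 1 lower on day 4, and 1 higher on day 6.

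In the gonad itself, Mycn was the member with the most reads, and it went down through fetal stages. Its CPM, counts scaled by TMM to a library total of 1000000, were 68.98 and 69.9 at E12.5, 51.6 and 48.6 at E13.5, then 14.1 and 14.6 at E16.5, and 29.9 and 29.0 in P6w. No 2 stages overlapped. Here a gene was called at an edgeR adjusted p below 0.05 with no fold limit, among 16398 genes. From E12.5 Mycn fell by 0.47 on the log2 scale at E13.5 (SE 0.131, edgeR adjusted p = 0.00846), by 2.27 at E16.5 (SE 0.141, edgeR adjusted p = 2.01e-08) and by 1.24 in P6w (SE 0.136, edgeR adjusted p = 1.99e-06). The E13.5 call was lost without E12.5 replicate 1, E12.5 replicate 2 or E13.5 replicate 2 (edgeR adjusted p from 0.0584 to 0.0922). It fell by 1.80 from E13.5 to E16.5 and rose by 1.04 from E16.5 to P6w (SE 0.142, edgeR adjusted p = 1.8e-05).

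Tdgf1 was a low transcript of fetal GSCs and a clear one of the adult ovary. Its counts were 13 and 6 at E12.5, 4 and 9 at E13.5, then 23 and 0 at E16.5, and 202 and 218 in P6w. It rose in P6w by 5.24 from E12.5 (SE 0.612, edgeR adjusted p = 3.88e-06) and by 4.94 from E16.5 (SE 0.598, edgeR adjusted p = 5.15e-06). Between fetal stages it was not called (-0.36 and 0.30 from E12.5), and the E16.5 value rested on 1 library, since without it the difference from E12.5 was -5.98. Oocyte genes were also present in P6w, with 687 and 258 counts of Zp3 and 652 and 253 of Gdf9, chosen after their values were seen. Germ cell genes were low in P6w, where Dazl had 45 and 58 counts, Ddx4 7 and 4 and Dppa3 15 and 9. At E12.5 Dazl had 85 and 82 counts, Ddx4 13 and 24 and Dppa3 11 and 11. The part of oocytes or other germ cells in the Tdgf1 level was not tested.

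Lefty1 had 16 to 45 counts in every stage library. In CPM it was at 1.158 and 0.791 at E12.5, 2.03 and 2.57 at E13.5, then 1.77 and 1.163 at E16.5, and 3.10 and 2.33 in P6w. The lower E16.5 value thus lay just above the higher E12.5 value. It rose at E13.5 by 1.23 (SE 0.446, edgeR adjusted p = 0.0349) and in P6w by 1.47 (SE 0.454, edgeR adjusted p = 0.0132). The E13.5 call was lost with DESeq2 (adjusted p = 0.0816) and without scaling beyond library size (edgeR adjusted p = 0.114). It was also lost without either E12.5 library or E13.5 replicate 2, at differences from 0.97 to 1.52. The P6w call was lost without E12.5 replicate 2 (difference 1.22) or P6w replicate 1 (difference 1.24).

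The other 5 members were at the limit of detection in the gonad. Fgf5 had 0 to 7 counts a library, Otx2 0 to 8, Foxd3 0 to 3, Nodal 0 to 3 and Lefty2 0 to 2, and none of them passed the filter on low counts. A count of 0 allows up to 3 counts. Against E12.5, the 3 tested members gave 2 calls at E13.5 (45.9% of genes), 1 at E16.5 (37.6%) and 3 in P6w (52.9%). From E13.5 to E16.5 it was 1 of 3, against 54.1% of genes, and from E16.5 to P6w 2 of 3, against 56.1%.

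In the labels L5 marks all libraries of E12.5 and E13.5 with replicate 1 of E16.5, and L1 marks replicate 2 of E16.5 with the P6w pair. Within L1 Tdgf1 had 0 counts at E16.5 and 202 and 218 in P6w, and Mycn was at 14.6 CPM against 29.9 and 29.0. Within L5 Mycn was at 68.98 and 69.9 CPM at E12.5 and at 14.1 at E16.5. P6w and E12.5 share no tag, so for that pair tag and stage cannot be told apart.

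**Figure D4:**
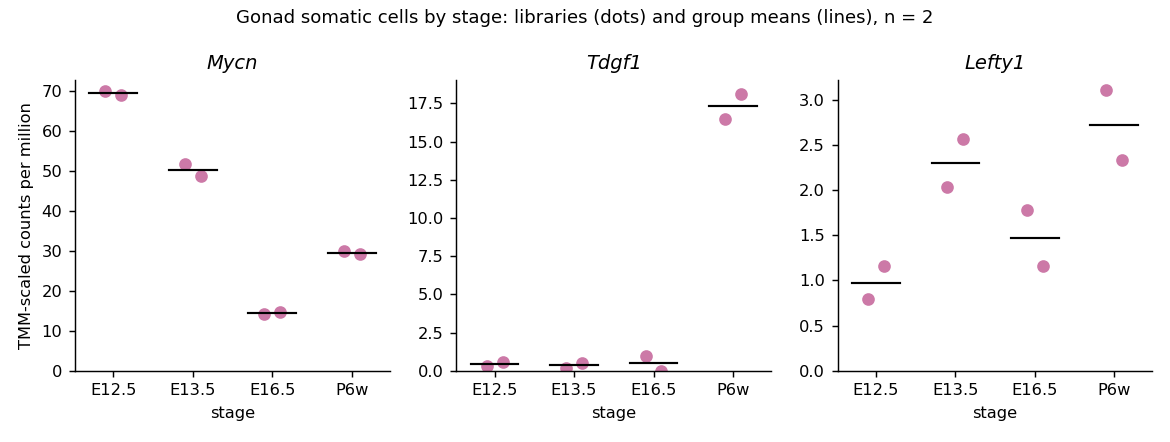
TMM-scaled CPM of the tested genes in each library (dots) of the 4 stages, with group means as lines and n = 2. Mycn steps down from 69.4 at E12.5 to 14.4 at E16.5, and Tdgf1 stands out in P6w at 16.503 and 18.1.

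Nodal pathway genes of the gonad outside the members were called at shares to be read against 45.9% of all genes at E13.5 and 52.9% in P6w. All 4 receptors on the list were lower at E13.5 than at E12.5 (median -1.16, all genes 0.03), and 3 of 4 were lower in P6w, such as Acvr2b at 15.1 CPM against 35.9. In P6w 1 of 4 signal transducers, 5 of 9 inhibitors and 2 of 4 ligands were called. Both ligands rose, Inhba from 2.24 to 5538 CPM and Inhbb from 37.5 to 733, which encode inhibin and activin subunits. Fst, which binds activin, rose from 107 to 308 CPM. Of 8 tested formative and primed epiblast genes 6 were lower in P6w, with a median of -2.01.

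In single V580_D6 cells the members were read in 15315 of 15412 barcodes, those with 200 genes or more and a mitochondrial share of 40% or less, at a median of 9281 UMIs. There is 1 sample, so no test was made, and intervals cover counting error only. Mycn had 13718 UMIs, or 84.2 CPM, here UMIs scaled to 1000000 (95% exact Poisson interval 82.8 to 85.7). Fgf5 had 1857 (11.4 CPM, 10.9 to 11.9), Tdgf1 1059 (6.503, 6.12 to 6.91) and Lefty1 531 (3.26, 2.99 to 3.55). Nodal had 110, Lefty2 30, Foxd3 22 and Otx2 1. Mycn was thus the main member here as in the bulk V580_D6 libraries.

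The cells were clustered without the 8 genes, and no step for doublets was made. Mycn was highest in cluster 1, led by the mesothelial genes Upk3b and Lrrn4, at 114 CPM (111 to 117), and next in cluster 2, led by the cycling genes Hist1h2ap and Mki67, at 102 (98.9 to 106). It was at 51.4 (48.5 to 54.4) in cluster 3, led by the collagen genes Col6a2 and Col1a1, and at 19.97 (16.7 to 23.7) in cluster 8, led by Rhox9 and Sct. Fgf5 was also highest in these clusters, with 18.7 (17.2 to 20.2) in cluster 2 and 16.6 (15.4 to 17.9) in cluster 1. It was at 1.83 (1.32 to 2.48) in cluster 7, led by Srgn and Rbp4, where Mycn was at 72.6. For Fgf5 the intervals of clusters 1 and 2 overlap.

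Among the clusters of at least 77 cells, Tdgf1 and Lefty1 had their highest levels in cluster 3 instead. Tdgf1 was at 11.8 CPM (10.4 to 13.3) there, at 9.77 (8.86 to 10.7) in cluster 1 and at 0.699 (0.399 to 1.13) in cluster 7. For Tdgf1 the intervals of clusters 3 and 1 overlap. Lefty1 was at 6.05 (5.09 to 7.14) in cluster 3 and at 3.99 (3.42 to 4.64) in cluster 1. Single cells held up to 19 UMIs of Tdgf1 and up to 18 of Lefty1, so that a few cells carried far more than the cluster level.

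The ligand Nodal was highest in cluster 6, led by Wfdc2, Stra8 and Epcam, which held 54 of its 110 UMIs at 2.89 CPM (2.17 to 3.77), and in cluster 8 at 2.30 (1.29 to 3.801). Cluster 1, with 3369 cells against 1025, was at 0.115. At a finer clustering (resolution 1.0) a group of 170 cells led by Stra8 held 40 Nodal UMIs, while the 919 cells led by Wfdc2 held 14, at 0.836 CPM (0.457 to 1.40). Foxd3 had 13 of its 22 UMIs in 4 cells of cluster 10, which carried the neuronal markers Tubb3, Stmn2, Elavl3 and Elavl4. Its level there was 17.8 CPM (9.46 to 30.4). Counts this low can hold free RNA of other cells, whose part was not tested.

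**Figure D5:**
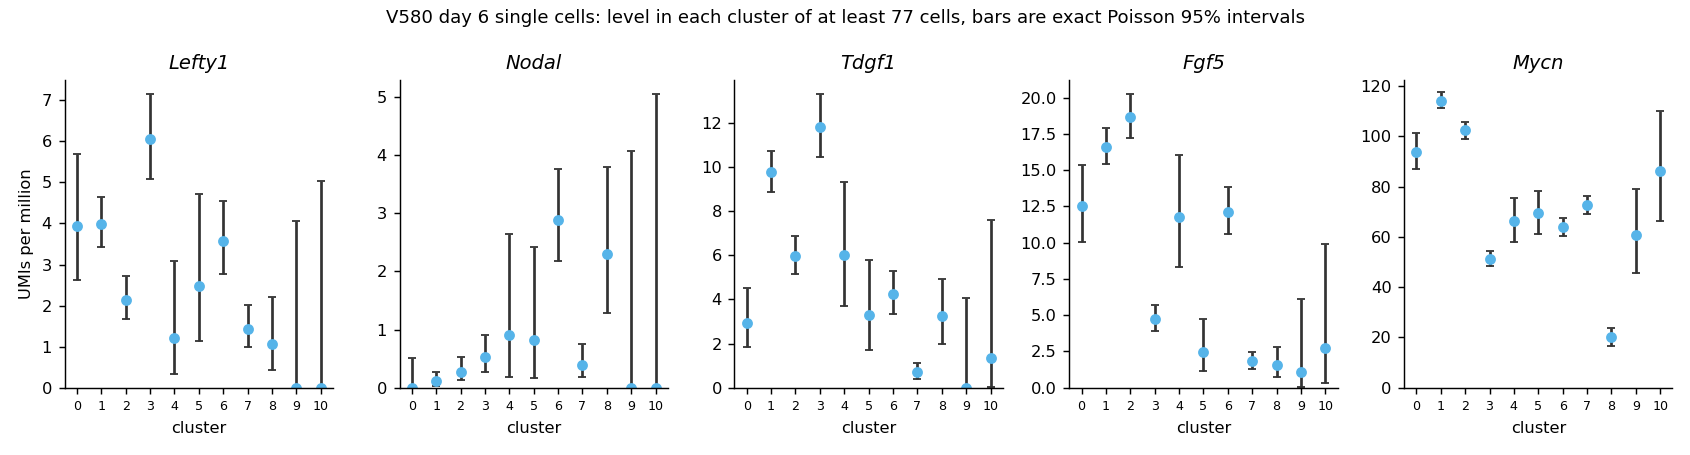
CPM of UMIs in each cluster of at least 77 cells of the V580_D6 sample, with exact Poisson 95% intervals as bars. Mycn peaks at 114 in cluster 1, Tdgf1 at 11.8 and Lefty1 at 6.05 in cluster 3, and Nodal at 2.89 in cluster 6.

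The members did not share 1 pattern over the bulk table. Over its 13 group means of log2(FPKM + 1), Pearson's r was 0.83 between Foxd3 and Tdgf1, 0.65 between Fgf5 and Lefty1 and -0.57 between Mycn and Lefty1. These points share the same libraries and give a description only. Among 9045 other genes the closest to Tdgf1 were Pum3 (r = 0.996), Rpf2 (0.995) and Ncl (0.995), and to Foxd3 Mtrf1 (0.980), Aoah (0.979) and Exosc4 (0.974). Among the closest to Lefty1 were Foxo4 (0.979) and Dtd1 (0.940). Those of Fgf5 were Tmem63b (0.950), Slain1 (0.921) and Ube4b (0.915), and those of Mycn were Otud5 (0.922), Trerf1 (0.898) and Klf13 (0.896).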

How the data were processed

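Per gene symbol, the authors deposited FPKM for the treatments, the V580 days and E12.5_GC, and whole-number counts for the stages (HISAT2 and featureCounts, mm10). UMI counts for 1 10x sample (Cell Ranger, mm10) were given per Ensembl ID. How the FPKM were made was not stated beyond a list of tools, and their divisor was 0.914 to 1.20 times the recovered reads in genes. A table with 10 columns of values could not be matched to samples and was not used here. Some genes that the naming rule selects are not reported here. Members and lists were chosen with earlier results of these data known.

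FPKM were tested with limma 3.58.1 (trend) on log2(FPKM + 1) in R 4.3.3, keeping genes that reached an FPKM of 1 in 2 (treatments) or 3 (days) libraries. V580_D4 and V580_48h were compared in 1 model of 31 libraries. Counts were tested with edgeR 4.0.16 (filterByExpr, TMM, quasi-likelihood), with DESeq2 1.42.0 as an alternative. P-values were adjusted by Benjamini-Hochberg over all genes tested. Whole reads were recovered from FPKM with GENCODE vM21 exon lengths, and 96.1% to 96.6% of low values came out whole within 0.02 reads. 10x cells were clustered with scanpy 1.11.5 and Leiden at a resolution of 0.5, on 2000 variable genes. From each list at most 3 rises and 3 falls were named, among called genes of at least 5 FPKM or CPM without overlap of replicates. On simulated data with 200 genes shifted by 2 on the log2 scale, limma recovered 100% for AM580_48h against Con_48h (10198 genes). On data with the same shift edgeR recovered 97.5% for E13.5 against E12.5 (15556 genes, with 15 false calls). For limma only genes with a mean log2(FPKM + 1) above 2 were shifted. Recovery of smaller changes, or by limma at lower levels, was not measured.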

Additional observations from a re-analysis of the deposited data

Results flagged for a closer look

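In 7 cases the effect of an agent on a member at 48 h differed from its effect at 24 h, by limma's test of the difference itself. For AM580 the difference was -2.53 for Foxd3, -1.70 for Mycn and 1.08 for Lefty1 on the log2(FPKM + 1) scale. For V580 it was -3.00 for Foxd3, -2.21 for Mycn and 2.36 for Lefty1. For Vc it was 1.08 for Lefty1, whose level was 3.36-fold lower under Vc at 24 h and differed by -0.06 at 48 h. The AM580 value of Lefty1 fell under the fold limit with a pseudocount of 0.1 (0.90) and in edgeR on the recovered reads (0.89).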

How the results depend on the processing

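Without the fold limit, limma called 4, 4, 5 and 4 members at 24 h (Vc, AM580, V580, V580 against AM580), 4 and 5 at 48 h under Vc and AM580, 5 for V580 against AM580, 4 between the controls, 2, 5 and 5 for the time differences of Vc, AM580 and V580, and 4, 4 and 3 for the steps to days 6, 8 and 10. Under that rule 12.4% of all genes passed for Vc at 48 h and 34.5% for the step to day 10. For the other comparisons that share is not given here, so these counts are not a result about the members in particular. With a pseudocount of 0.1, and likewise with edgeR on the recovered reads, 2 members instead of 1 were called for V580 against AM580 at 24 h, at 48 h and for day 8 against day 6, 3 instead of 2 under AM580 at 24 h and on day 6 against day 4 or E12.5_GC, and 4 instead of 3 for the time difference of V580. The recovered reads gave 1069 called genes in place of 339 for V580 at 48 h, 1046 in place of 344 for AM580 and 84 in place of 5 for Vc. They gave 113 in place of 7 and 163 in place of 28 for V580 against AM580 at 24 h and 48 h. For AM580 at 24 h it was 182 in place of 43, and for the time difference of V580 645 in place of 195. Day 6 gave 1516 in place of 585 against day 4 and 3197 in place of 1747 against E12.5_GC, and day 8 against day 6 gave 935 in place of 293. At E13.5, 1 member instead of 2 was called without scaling, with DESeq2 or with a 2-fold limit. With 1 library left out, the counts ran from 0 to 2 at E13.5, from 1 to 2 at E16.5 against E12.5 or E13.5 and from 1 to 2 for V580 against AM580 at 48 h. Without E16.5 replicate 1, Tdgf1 passed the test there. At a clustering resolution of 1.0 the highest cluster was at 21.1 CPM for Fgf5, 121 for Mycn, 17.1 for Nodal, 15.4 for Tdgf1 and 10.7 for Lefty1. For Lefty1 this was the group led by Stra8, with 6.55 in the group led by Myh11 and Col1a1. Tdgf1 was at 15.4 (13.6 to 17.3) in the latter, at 14.0 (12.4 to 15.7) in the group led by Gm20186 and Itm2a, and at 7.28 in that led by Col6a2 and Vcan.

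Signs turned for small differences. Fgf5 in the time difference was 0.0195 for Vc and 1.06 for V580 with a pseudocount of 0.1, and 0.0736 and 1.61 with the recovered reads. Mycn between the controls was 0.0315 under quantile normalization. With a library left out, values ran from -0.0198 to 0.0478 for Tdgf1 under AM580 at 24 h, from -0.15 to 0.14 for Foxd3 in the Vc effect with AM580 minus without at 48 h, from -0.0258 to 0.41 for Mycn on day 6 against E12.5_GC, and for Tdgf1 from -1.11 to 0.23 at E13.5, from -5.98 to 1.12 at E16.5 against E12.5 and from -5.61 to 1.49 at E16.5 against E13.5. The cause was not tested.

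Replicate numbers did not pair the libraries, since the deviations of same-numbered libraries correlated at a median of 0.03 for the days and 0.05 for the stages. With the replicate block, all 5 members remained called under V580 at 48 h and 3 of 3 in P6w, and no count of members called changed. Of the 2-library groups, each library left out leaves 1, whose spread is then assumed to be like that of the others. Depth limits Foxd3 after 48 h, Tdgf1 in gonad cells and 5 members in the stages.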

Other observations

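At a clustering resolution of 1.0, an alternative to the 0.5 used above, the V580_D6 single cells held a group of 170 cells led by Stra8, Dppa5a, Ooep and Spp1, with a median of 13251 UMIs, which is left unnamed. It held 40 of the 110 Nodal UMIs, in 30 cells, at 17.1 CPM (95% exact Poisson interval 12.2 to 23.3). Lefty1 was at 10.7 CPM (6.93 to 15.8) there, on 25 UMIs in 7 cells. Tdgf1 was at 14.1 (9.73 to 19.9), on 33 UMIs in 8 cells. The group held 6 of the 30 Lefty2 UMIs, in 5 cells, 7 of the 22 Foxd3 UMIs, in 2 cells, and the 1 Otx2 UMI. Mycn was at 29.6 CPM and Fgf5 at 1.29, both below their level over all cells. With 1 sample there is no test of these differences.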
